A study of Mus musculus with 4 samples.

Results

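The retinoic acid genes Stra6, Rdh10, Aldh1a1, Aldh1a2, Crabp1, Crabp2, Cyp26a1, Cyp26b1 and Rarb were followed across the cell types of the juvenile mouse testis. They were chosen by gene symbol, each matched 1 row of the count tables, and they make up 9 of the 31053 genes measured. The question was which cells of the region around the rete testis (RT) express the genes that take up, make, bind and degrade retinoic acid, with the RT epithelium, the Sertoli cells of the Sertoli valve (SV), the peritubular myoid cells and the germ cells set apart.

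The samples were 4 single-cell RNA libraries from C57BL/6 mice at postnatal day 14, each made from the testes of 3 pups, dissected to the RT and the seminiferous tubules next to it. The 2 control libraries carry the genotype SF1Cre in the labels, whereas the 2 Sox17-cKO libraries carry SF1Cre together with Sox17flox/flox, so that the Cre driver is shared as far as the labels go. The study's methods instead give the control genotype as Sox17flox/flox and name no Cre for it, and whether the controls carried Cre was not settled here. SF1Cre uses the regulatory sequence of Nr5a1, a gene active in the somatic cells of the gonad, and it deletes Sox17, a transcription factor of the RT epithelium, in that lineage. Nothing in the labels says that same-numbered libraries share a litter or a day. The p-values between genotypes measure the spread between these pooled libraries. Those between cell types measure how the difference between the types varies from library to library, over both genotypes.

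Retinoic acid is made from circulating retinol (vitamin A) inside the cells that use it or next to them. STRA6 carries retinol across the cell membrane, RDH10 oxidizes it to retinal, and the ALDH1A enzymes oxidize retinal to retinoic acid. CRABP proteins hold retinoic acid in the cytoplasm, CYP26 enzymes break it down, and RARB is one of the nuclear receptors through which it switches genes on. In the juvenile testis retinoic acid is known for driving spermatogonia to differentiate and germ cells to enter meiosis, and Stra8 is the textbook target gene of that step.

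The 9 genes are protein coding and lie on several chromosomes of the mouse genome (GRCm38, GENCODE vM21). Stra6 lies at chr9:58063788-58153996, Aldh1a2 at chr9:71215789-71296243 and Crabp1 at chr9:54764748-54773110, all on the plus strand. Cyp26a1 lies at chr19:37697798-37701536 and Aldh1a1 at chr19:20492715-20643465, also on the plus strand. The other plus-strand genes are Rdh10 at chr1:16105774-16133734 and Crabp2 at chr3:87948666-87953376. Cyp26b1 at chr6:84571414-84593908 and Rarb at chr14:16430839-16819156 lie on the minus strand.

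Cyp26a1 and Rarb are known direct targets of retinoic acid receptors, which bind pairs of short repeats 5 bases apart. The promoters of the 9 genes in the RefSeq table (GRCm38.p6), where 7 of them had an entry, were searched for such pairs, from 250 bases before to 50 bases after the transcription start. Each repeat of a pair could read as the form AGGTCA or as the close forms AGTTCA, likewise GGTTCA, and also GGGTCA, the repeats of a pair could differ, and both strands were searched. A pair was present in 2 of the 7 genes, Cyp26a1 and Rarb, and in 31 of all 27025 genes with a promoter (0.115%). Both genes were known targets before the search, so these shares are a description and not a test. The 250 bases before the start of these genes are printed here because they carry the only pairs found among the 7 genes, with the repeats in capitals, at chr19:37697558-37697807 on the plus strand for Cyp26a1 and at chr14:16575477-16575726 on the minus strand for Rarb.
Cyp26a1: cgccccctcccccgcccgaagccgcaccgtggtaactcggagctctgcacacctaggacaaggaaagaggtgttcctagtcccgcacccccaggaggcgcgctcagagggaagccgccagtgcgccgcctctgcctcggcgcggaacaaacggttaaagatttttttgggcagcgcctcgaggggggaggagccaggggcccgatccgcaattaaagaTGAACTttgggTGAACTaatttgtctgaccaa
Rarb: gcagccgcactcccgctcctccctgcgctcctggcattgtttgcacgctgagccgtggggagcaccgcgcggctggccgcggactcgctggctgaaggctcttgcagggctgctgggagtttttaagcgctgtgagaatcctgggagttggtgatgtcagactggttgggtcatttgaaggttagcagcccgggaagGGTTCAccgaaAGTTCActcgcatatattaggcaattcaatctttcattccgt
The pair of Cyp26a1 reads on the strand opposite to the gene, 32 to 16 bases before the start, and that of Rarb reads on the strand of the gene, 53 to 37 bases before the start. A match of letters is a description of the sequence, and these data do not measure binding there.

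Cells with 1000 to 4500 detected genes were retained, 22567 of 46001 barcodes, with 5174 to 6135 cells and 33649565 to 42011650 unique molecular identifiers (UMIs, each counting 1 captured RNA molecule) per library. They were clustered without the retinoic acid genes and named from marker genes. RT-like cells (227) had the highest Pax8, Cdh1 and Krt18 of all classes, and their summed Sertoli markers stood at 2493 to 3301 CPM (counts per 1e6 UMIs), against 6743 to 8205 CPM in the Sertoli-like cells of the tubules. Of the 7 RT markers, Krt8 ranked 2 of the 14 classes in RT-like cells, after mesothelial-like cells. Epcam ranked 5 there (99.3 CPM) and was highest in differentiating spermatogonia-like cells. Krt7 and Krt19 ranked 2 but were low in RT-like cells, at 3.24 and 5.49 CPM on average. SV Sertoli-like cells (229) held Sertoli markers together with Nes and Clic5, which were highest there of all classes. Of the other 7 SV markers, Wnt4 and Igfbp3 ranked 2 of the 14 classes there, Adamts1 and Lbh ranked 3, Ccnd1 ranked 6, Hspg2 ranked 9 (28.6 CPM) and Fgfr1 ranked 11 (28.9 CPM). The SV markers were partly chosen by the study on these samples. The other classes were tubule Sertoli-like (5115), myoid-like (2346), interstitial stroma-like (1464), fibroblast-like (2856), pericyte-like (297), Leydig-like (250), macrophage-like (296), endothelial-like (72) and mesothelial-like cells (17), and undifferentiated spermatogonia-like (571), differentiating spermatogonia-like (3195) and spermatocyte-like cells (3215). A further 2417 cells, with a median of 30.8% mitochondrial UMIs, stayed unnamed. Sox17 checked the genotype labels: in RT-like cells it stood at 356 and 312 CPM in controls 1 and 2 and at 45.5 and 34.7 CPM in Sox17-cKO 1 and 2. Endothelial-like Sox17 moved the same way, at 508 and 344 CPM against 102 and 101 CPM, on 10 to 62 UMIs per library. The study, by in situ hybridization at a later age, instead reports the Sox17 of interstitial vessels as conserved in the mutant. The cause of the lower endothelial-like level was not tested. The libraries shared 20 to 43 barcodes in pairs, and 7 to 9 among retained cells.

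A level here is the CPM of a gene in all UMIs of a class in 1 library, and means and SDs are over the 4 libraries (n = 4). Values in library order are those of control 1, control 2, Sox17-cKO 1 and Sox17-cKO 2. Classes were compared over libraries, never over cells, with edgeR's quasi-likelihood test and Benjamini-Hochberg adjustment over all genes tested. The RNA that leaks from broken cells adds a low background to every droplet, so each low level is given beside that in macrophage-like or endothelial-like cells.

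**Figure D1:**
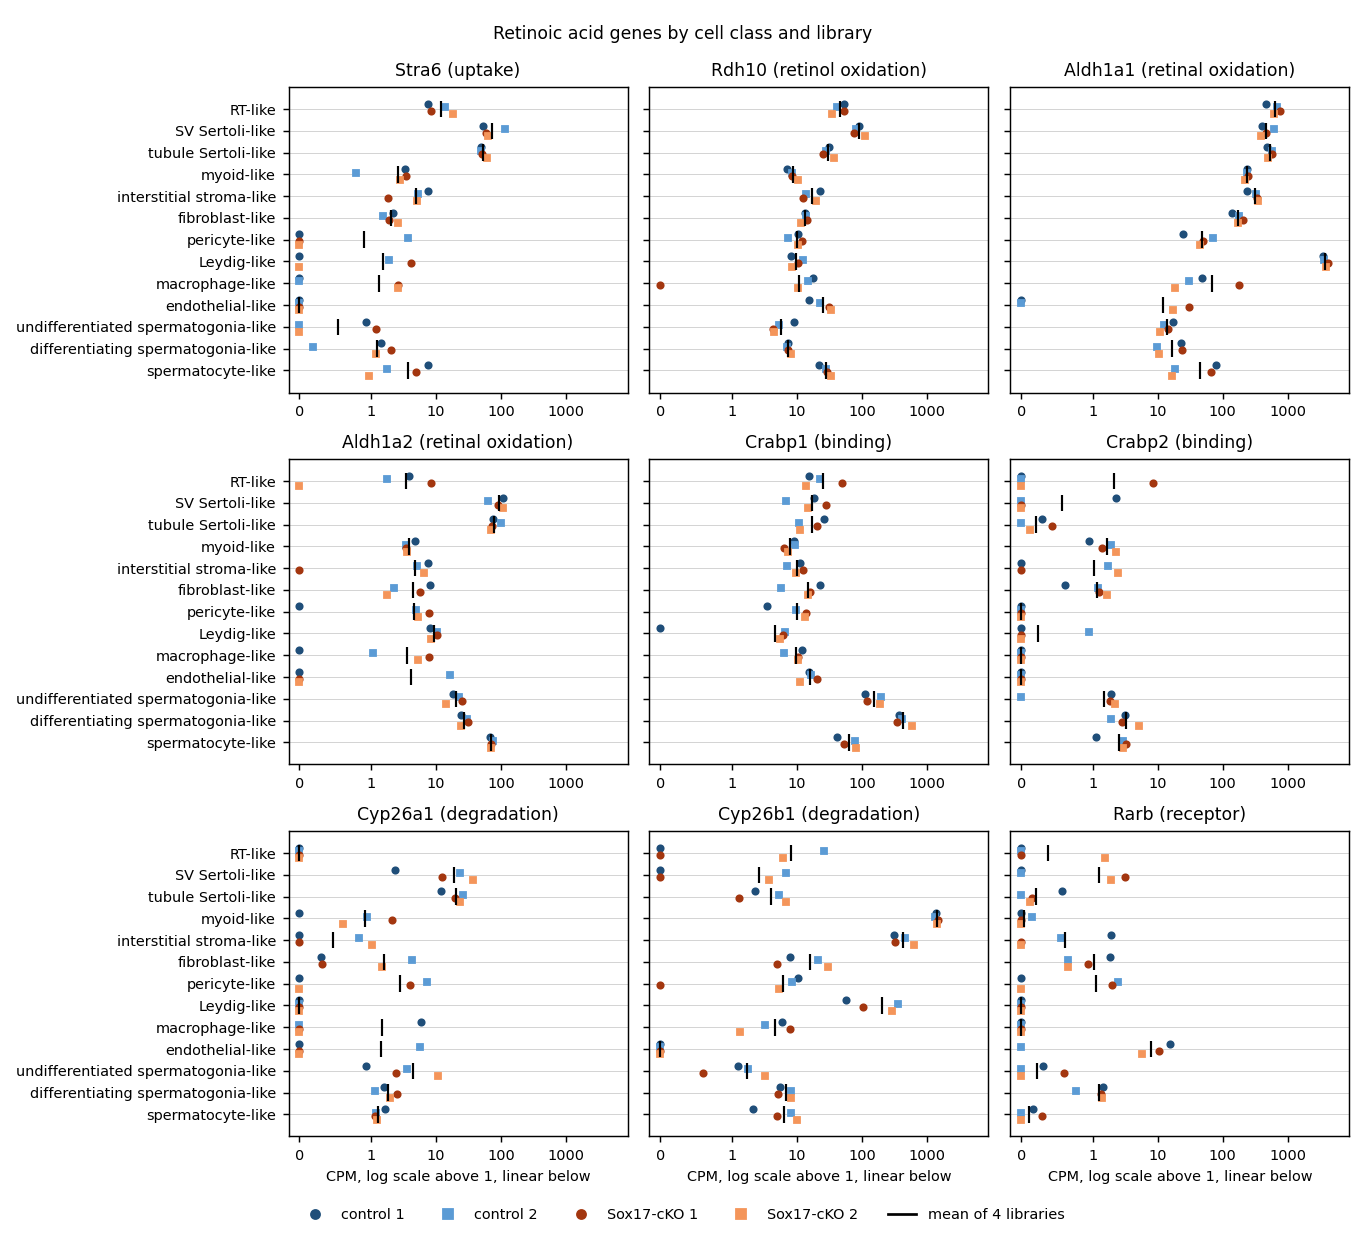
Level of each of the 9 genes in 13 cell classes, without the 17 mesothelial-like cells. The horizontal axes give CPM on a log scale above 1 and a linear scale below, points are the 4 libraries and black bars their mean; Cyp26b1 is highest in myoid-like cells (1357 to 1481 CPM), Crabp1 in differentiating spermatogonia-like cells, and Stra6 in both Sertoli-like classes.

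Stra6, the retinol channel, was found mostly in Sertoli-like cells. In tubule Sertoli-like cells it stood at 49.2, 49.0, 51.7 and 61.2 CPM in library order, and in SV Sertoli-like cells at 52.5, 114, 59.0 and 62.9 CPM. These classes overlapped, control 2 alone being high in the SV class. RT-like cells held 7.56, 13.8, 8.27 and 18.1 CPM, below every Sertoli-like value. All other classes averaged 4.92 CPM or less, with 1.31 CPM in macrophage-like cells and 0 UMIs in endothelial-like cells. Of the 2056 Stra6 UMIs in named cells, 80.6% came from tubule Sertoli-like cells.

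Between classes, Stra6 was lower in RT-like than in tubule Sertoli-like cells, with a log2 fold change of -2.24 ± 0.25 (SE, adjusted p = 3.21e-07, edgeR). Against SV Sertoli-like cells the difference was -2.47 ± 0.32 (adjusted p = 5.23e-07, edgeR). In that comparison Stra6 passed the filter on low counts through the SV class only. SV and tubule Sertoli-like cells differed by 0.37 ± 0.18, which did not pass the threshold (adjusted p = 0.129, edgeR). For shares at equal depth, here and below, cells were thinned to 3000 UMIs and shallower cells were left out. That left out 30 of 227 RT-like, 46 of 229 SV Sertoli-like and 1515 of 5115 tubule Sertoli-like cells. Among the cells kept, Stra6 was detected in 3.55% of RT-like cells (95% exact binomial interval 1.44 to 7.18%), 18.0% of SV Sertoli-like and 13.0% of tubule Sertoli-like cells, against 0.37% of macrophage-like cells. Unthinned and over all cells of each class, these shares were 9.25%, 31.0%, 20.1% and 1.01%.

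Rdh10, the retinol dehydrogenase that starts the synthesis, was highest in SV Sertoli-like cells. There it stood at 91.3, 80.8, 74.5 and 111 CPM in library order, above every library of every other class. RT-like cells came next with 53.0, 41.5, 53.8 and 34.7 CPM. Tubule Sertoli-like cells held 31.1, 27.6, 24.9 and 36.7 CPM, and spermatocyte-like cells 21.6, 27.9, 28.7 and 32.9 CPM, so that these neighbours overlapped with each other and the tubule class with the lowest RT-like library. Endothelial-like cells averaged 25.5 CPM, on 13 cells with a UMI, and macrophage-like cells 10.8 CPM, which is above the level in myoid-like cells (8.50 CPM) and in both spermatogonia-like classes (5.69 and 7.36 CPM).

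Rdh10 was the one gene that passed between the SV and the tubule. It was higher in SV Sertoli-like than in tubule Sertoli-like cells by 1.56 ± 0.16 on the log2 scale (2.96-fold, adjusted p = 2.77e-09, edgeR), and no other of the 7 genes tested passed, where 28.9% of all genes did (14.2% higher and 14.6% lower). RT-like cells were below SV Sertoli-like cells by -1.06 ± 0.24 (adjusted p = 0.000900, edgeR). RT-like and tubule Sertoli-like cells differed by 0.29 ± 0.22, which did not pass (adjusted p = 0.301, edgeR). Of the cells deep enough to be thinned to 3000 UMIs, 24.0% of SV Sertoli-like, 12.2% of RT-like and 7.53% of tubule Sertoli-like cells held an Rdh10 UMI, against 3.36% of macrophage-like cells.

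Aldh1a1, a retinal dehydrogenase, was most abundant in Leydig-like cells, the steroid-producing cells between the tubules, at 3575, 3616, 4256 and 3893 CPM in library order. It was also high in all 3 epithelial classes. RT-like cells held 473, 680.3, 753 and 613 CPM, tubule Sertoli-like cells 475, 584, 575 and 506 CPM, and SV Sertoli-like cells 406, 623, 459 and 389 CPM. These classes overlapped one another and lay above interstitial stroma-like (313 CPM on average), myoid-like (233 CPM) and fibroblast-like cells (174 CPM). Macrophage-like cells held 47.0, 29.8, 181 and 18.3 CPM, the high value being that of Sox17-cKO 1, and endothelial-like cells averaged 11.9 CPM.

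RT-like and tubule Sertoli-like cells did not differ past the threshold in Aldh1a1 (log2 fold change 0.00 ± 0.14, adjusted p = 0.993, edgeR), nor did SV and tubule Sertoli-like cells (-0.22 ± 0.09, adjusted p = 0.0556, edgeR). The latter had an adjusted p under the threshold in 3 alternatives, namely once genes of low count were kept (0.00434, edgeR), in cells under 10% mitochondrial UMIs (0.0321) and without control 2 (0.0138), at -0.31, -0.32 and -0.30 on the log2 scale, where the adjusted p over all alternatives ran from 0.00434 to 0.572 (edgeR and DESeq2). RT-like cells were above SV Sertoli-like cells by 0.43 ± 0.15 (adjusted p = 0.0257, edgeR), a call that was lost in 6 alternatives, among them the fits without control 1 (adjusted p = 0.0575), Sox17-cKO 1 (0.170) or Sox17-cKO 2 (0.163), where the adjusted p over all alternatives ran from 0.00993 to 0.185 (edgeR and DESeq2). The 7 Leydig markers summed to 162 to 192 CPM in SV Sertoli-like cells, against 12.9 to 33.0 CPM in tubule Sertoli-like and 0 to 12.1 CPM in RT-like cells. The part of Leydig RNA in the Aldh1a1 level of the SV class was not tested.

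Aldh1a2, the retinal dehydrogenase best known for making retinoic acid in the embryo, had another pattern. It was found in Sertoli-like cells and in germ-like cells, spermatocyte-like cells above all, and was near the background in the RT. In library order, SV Sertoli-like cells held 109.5, 64.0, 89.99 and 109.2 CPM, tubule Sertoli-like cells 75.4, 101, 71.7 and 70.3 CPM, and spermatocyte-like cells 67.8, 74.6, 70.7 and 71.0 CPM, all overlapping. RT-like cells held 3.78, 1.73, 8.27 and 0 CPM, a total of 4 UMIs in 227 cells, which is the level of macrophage-like cells (3.54 CPM on average). The 17 mesothelial-like cells averaged 82.6 CPM on 16 UMIs, with 0 UMIs in control 1, and undifferentiated and differentiating spermatogonia-like cells averaged 20.1 and 27.2 CPM.

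Aldh1a2 was lower in RT-like than in tubule Sertoli-like cells, with a log2 fold change of -5.36 ± 0.41 (41.0-fold, adjusted p = 1.12e-09, edgeR). Against SV Sertoli-like cells it was -5.12 ± 0.45 (adjusted p = 7.78e-10, edgeR). SV and tubule Sertoli-like cells differed by 0.29 ± 0.16, short of the threshold (adjusted p = 0.192, edgeR), although without control 2 the difference was 0.53 (adjusted p = 0.00808, against 0.122 to 0.725 in the other alternatives, edgeR and DESeq2). In all, 3 of the 7 genes tested were lower in RT-like than in tubule Sertoli-like cells and 0 were higher, where 53.8% of all 11352 genes differed, 28.7% lower and 25.2% higher. Of these 3, Cyp26a1 and Aldh1a2, with 0 and 4 UMIs in RT-like cells, passed the filter on low counts through the tubule class only. A gene admitted in that way can hardly come out higher in RT-like cells, so the tally is a description. RT-like and SV Sertoli-like cells differed in 4 of 4 genes tested, with Aldh1a1 higher and the other 3 lower, where 44.1% of all genes differed (23% higher and 21.1% lower). Here Aldh1a2 and Stra6 passed the filter through the SV class only.

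In RT-like cells Aldh1a1 thus overlapped with both Sertoli-like classes, whereas Aldh1a2 overlapped with macrophage-like cells. Of the other pathway genes, the RT-like class held Aldh1a3, a further retinal dehydrogenase, at 102, 106, 49.6 and 42.3 CPM in library order, against 2.58 to 5.44 CPM in tubule Sertoli-like cells, a difference of 4.15 on the log2 scale. In Aldh1a3 both Sox17-cKO libraries lay below both controls in RT-like cells, a difference that did not pass the threshold (-1.24 ± 0.34, unadjusted p = 0.00526, adjusted p = 0.384, edgeR). RT-like cells were also higher in Rarres2 (6.17) and Dhrs4 (2.70), and lower in Fabp5 (-3.31). Of the 25 other pathway genes tested in RT-like against tubule Sertoli-like cells, 9 were higher and 7 lower (adjusted p under 0.05, edgeR). Of all genes, 25.2% were higher and 28.7% lower there. In SV against tubule Sertoli-like cells 4 of 23 other pathway genes were higher and 5 lower, with Rarres2 at 4.27 on the log2 scale. Of all genes in that comparison, 14.2% were higher and 14.6% lower.

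**Figure D2:**
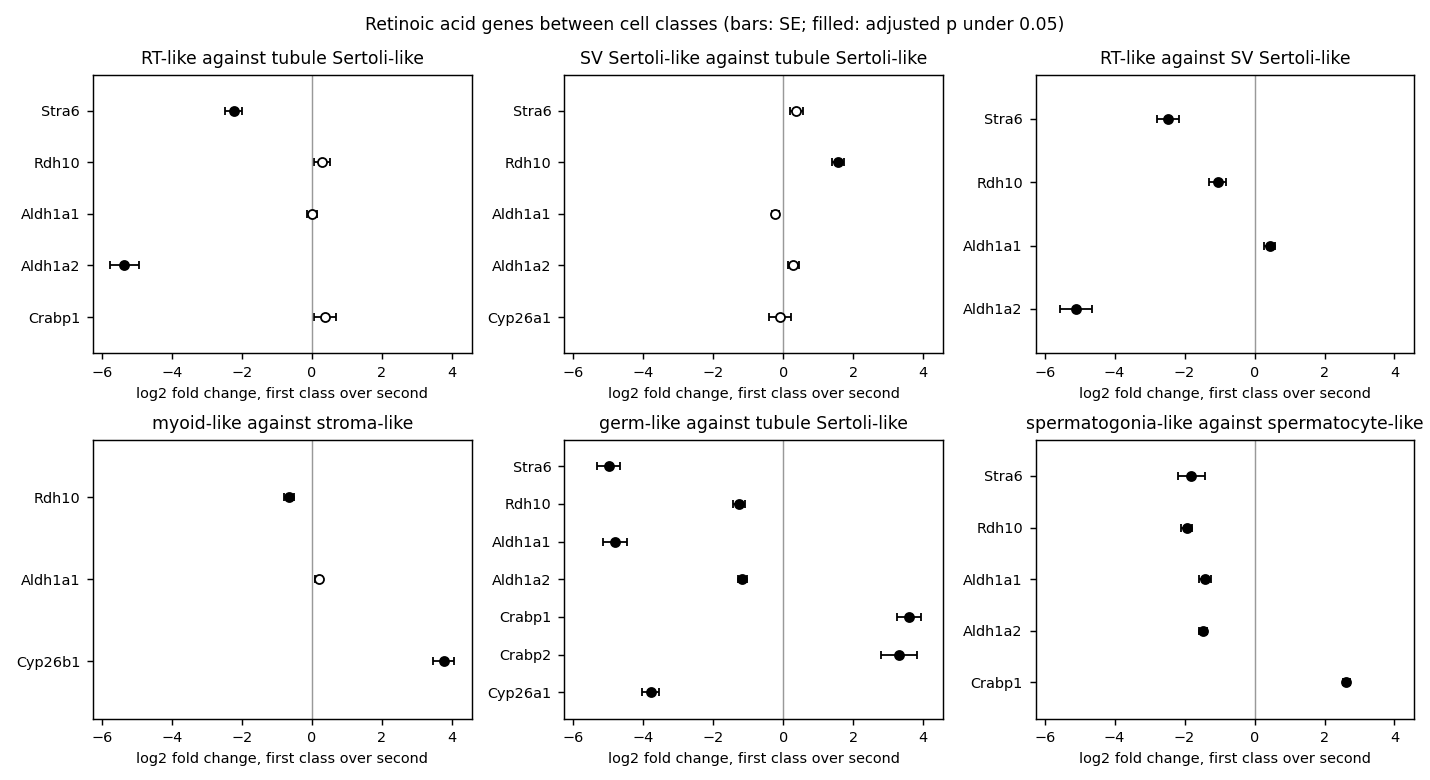
Log2 fold change of each gene between pairs of cell classes, summed per library, with bars of 1 SE; filled points passed an adjusted p of 0.05. Stroma-like is the sum of interstitial stroma-like and fibroblast-like cells, and Cyp26a1 has no point in the RT-like panels because RT-like cells held 0 UMIs; Aldh1a2 and Stra6 lie left of 0 in RT-like cells, Rdh10 right of 0 in SV Sertoli-like cells and Cyp26b1 right of 0 in myoid-like cells.

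Cyp26a1, one of the enzymes that degrade retinoic acid, was highest in the Sertoli-like classes. Tubule Sertoli-like cells held 12.1, 26.3, 19.5 and 23.4 CPM in library order, and SV Sertoli-like cells 2.28, 23.6, 12.4 and 37.0 CPM. The SV class overlapped the tubule class and spread more widely, control 1 being low on 1 UMI and Sox17-cKO 2 high. Macrophage-like cells averaged 1.47 CPM. RT-like cells held 0 UMIs in every library, 0 of 227 cells, which allows a share of up to 1.32% of cells with a UMI by the floor of 3 counts (1.61% by the exact binomial upper limit).

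As a reference, 3 UMIs in the whole RT-like class would give 1.72 CPM. The pooled Cyp26a1 level was 11.2-fold above that in tubule Sertoli-like and 11.7-fold above it in SV Sertoli-like cells. These ratios leave out the spread of the Sertoli-like levels over libraries. The SV level rests on 32 UMIs, 20 of them in Sox17-cKO 2. The test against tubule Sertoli-like cells gave an adjusted p of 1.64e-06 (edgeR), for a gene that passed the filter on low counts through the tubule class only. RT-like cells above 4500 detected genes, left out here and more numerous than those kept (249), added 3 Cyp26a1 UMIs, a mean of 0.181 CPM with all 476 cells. SV and tubule Sertoli-like cells differed by -0.08 ± 0.32 in Cyp26a1, which did not pass (adjusted p = 0.885, edgeR).

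Within the tubule, Sertoli-like cells were not uniform. A finer clustering, at a resolution of 0.8, split them into 4 clusters, of which clusters 5 and 6 were alike in depth, with a median of 8356 and 8667 UMIs per cell. The genes described were not used to cluster, but the split was looked at after their values were seen, so no test is given. Stra6 stood at 94.7 to 111 CPM in cluster 6 and at 21.0 to 35.9 CPM in cluster 5 over the 4 libraries. Rdh10 stood at 44.3 to 65.5 CPM against 5.28 to 8.65 CPM. Cyp26a1 stood at 29.1 to 57.7 CPM against 0 to 2.48 CPM. Stra6, Rdh10 and Cyp26a1 were thus high together in cluster 6, with no overlap between the clusters. Aldh1a1 went the other way, at 354 to 442 CPM in cluster 6 and 542 to 639 CPM in cluster 5, without overlap. Aldh1a2 overlapped, at 58.2 to 106.9 CPM and 66.9 to 94.5 CPM. By its mean the SV class lay between the clusters in Stra6 and Cyp26a1 and above both in Rdh10. The mean Rdh10 was 89.4 CPM in the SV class, 58.1 CPM in cluster 6 and 6.88 CPM in cluster 5, so that the higher Rdh10 of the SV class was smaller against cluster 6 than against the tubule class as a whole.

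**Figure D3:**
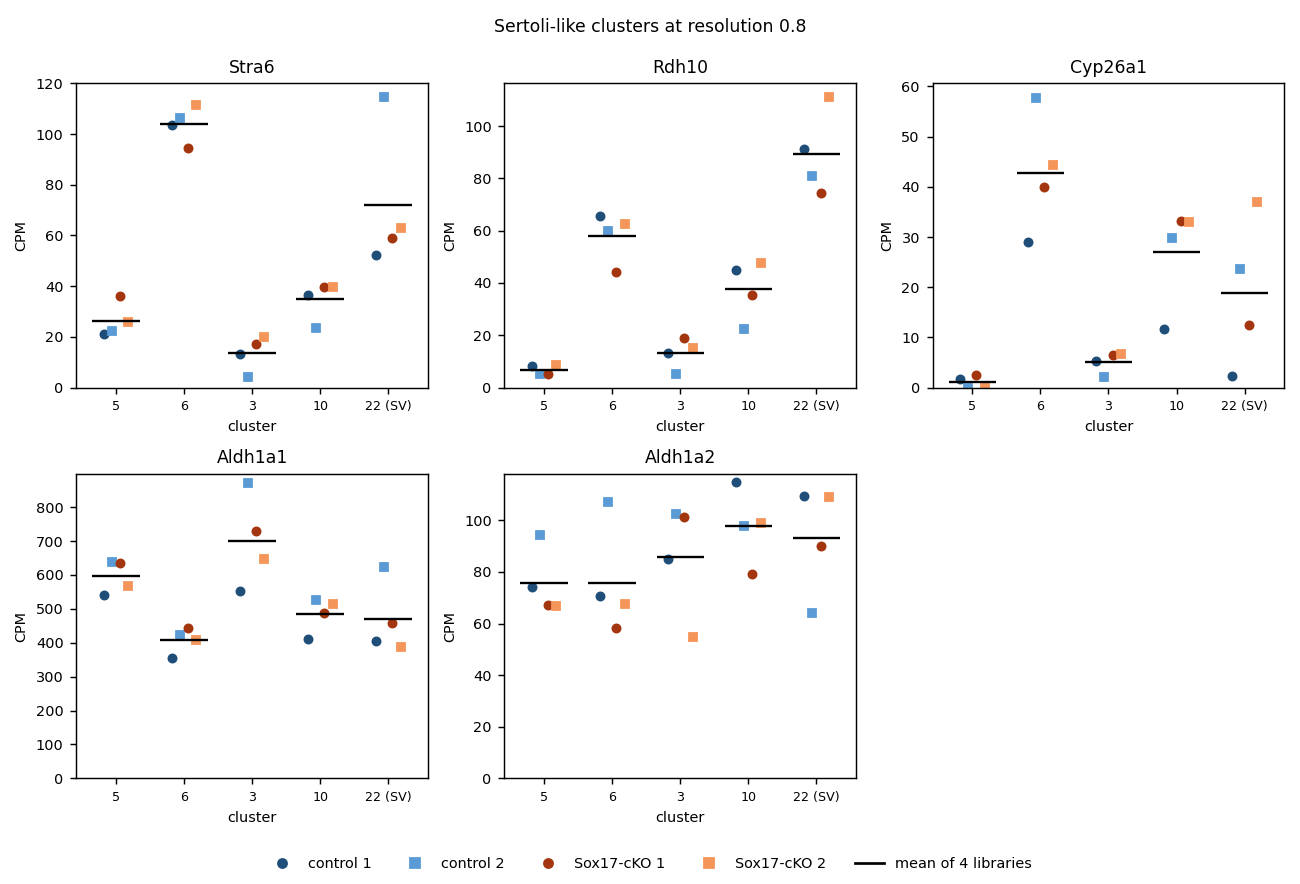
Level in CPM (linear axis from 0) of 5 genes in the Sertoli-like clusters of the finer clustering, with the 4 libraries as points and their mean as a bar. Stra6, Rdh10 and Cyp26a1 are high in cluster 6 and low in cluster 5 in every library, whereas Aldh1a2 overlaps; cluster 22 is the SV Sertoli-like class, and clusters 3 and 10 are shallower.

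Cyp26b1, the other degrading enzyme, was held by the cells around the tubules. In myoid-like cells, the contractile cells of the tubule wall, it stood at 1402, 1357, 1481 and 1438 CPM in library order, and 92.6% of these cells had a UMI (88.5% when thinned to 3000 UMIs). Interstitial stroma-like cells held 317, 459.8, 325 and 644 CPM and Leydig-like cells 56.4, 358, 105 and 290.1 CPM. Each of these values lay below every myoid-like value, and in both classes the libraries with replicate number 2 were the high ones. The number of myoid-like cells differed in the same way. It was 320 and 190 in the libraries numbered 1 and 810 and 1026 in those numbered 2. The 8 myoid markers summed to 1551, 1608, 1693 and 1758 CPM in interstitial stroma-like cells, in library order. In Leydig-like cells they summed to 121, 318, 103 and 374 CPM, and in fibroblast-like cells to 9496, 8203, 5622 and 8668 CPM. The part of myoid RNA in the interstitial and Leydig-like levels was not tested.

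In the other classes of 50 or more cells Cyp26b1 was low. Fibroblast-like cells averaged 15.7 CPM, macrophage-like cells 4.56 CPM, and endothelial-like cells held 0 UMIs. RT-like cells held 0, 26.0, 0 and 6.04 CPM, found in the libraries numbered 2, and tubule and SV Sertoli-like cells averaged 3.90 and 2.61 CPM. The germ-like classes averaged 6.68 CPM or less. The 17 mesothelial-like cells averaged 80.9 CPM on 11 UMIs, found in the libraries numbered 2. Of the CYP26 genes, Cyp26a1 was thus highest in the Sertoli-like classes and Cyp26b1 in the myoid-like class.

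Myoid-like cells were compared with the sum of interstitial stroma-like and fibroblast-like cells, called stroma-like here. In Cyp26b1 that sum mixes interstitial stroma-like cells (436 CPM on average) with fibroblast-like cells (15.7 CPM). The mix differed by library, with 142, 635, 109 and 578 interstitial stroma-like and 597, 969, 508 and 782 fibroblast-like cells in library order. Myoid-like cells were not tested against interstitial stroma-like cells alone. Cyp26b1 in stroma-like cells was 51.3, 144, 52.0 and 226 CPM in library order, and the difference was 3.77 ± 0.30 on the log2 scale (13.7-fold, adjusted p = 9.16e-07, edgeR). Rdh10 was lower in myoid-like cells (-0.66 ± 0.15, adjusted p = 0.00361, edgeR), with both classes at or below 14.5 CPM. Aldh1a1 differed by 0.19 ± 0.10, short of the threshold (adjusted p = 0.136, edgeR). These were 2 of 6 genes tested past the threshold, against 38.4% of all genes (18.9% higher and 19.5% lower). Crabp1 differed by -0.49 and did not pass (adjusted p = 0.170, edgeR), but passed without control 2, at -1.02 (adjusted p = 0.00121), and once genes of low count were kept (0.00760), where the other alternatives gave 0.156 to 0.942. Of 24 other pathway genes, 5 were higher and 6 lower in myoid-like cells, among them Rbp4, the plasma carrier of retinol (1.95), and Adh1, an alcohol dehydrogenase that acts on retinol (-2.67).

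Crabp1, a cytoplasmic binding protein for retinoic acid, marked the spermatogonia. Differentiating spermatogonia-like cells held 378, 422, 345 and 601 CPM in library order, undifferentiated spermatogonia-like cells 114, 199, 122 and 190.0 CPM, and spermatocyte-like cells 40.8, 78.3, 52.2 and 80.7 CPM. The 3 stages did not overlap. Of the somatic classes with 50 or more cells none averaged more than 25.2 CPM, the value in RT-like cells, where tubule Sertoli-like cells averaged 16.9 CPM, endothelial-like 15.9 CPM and macrophage-like 9.78 CPM. Thinned to 3000 UMIs, 62.6% of differentiating spermatogonia-like, 30.2% of undifferentiated and 16.2% of spermatocyte-like cells held a UMI, against 4.06% of RT-like and 3.73% of macrophage-like cells. Crabp2, its close relative, averaged 3.21 CPM or less over the libraries in every class. Its highest value in a single library was 8.27 CPM, in RT-like cells of Sox17-cKO 1 on 2 UMIs, and pericyte-like, macrophage-like, endothelial-like and mesothelial-like cells held 0 UMIs.

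Germ-like cells, the sum of all 3 stages, were above tubule Sertoli-like cells in Crabp1 by 3.60 ± 0.34 on the log2 scale (adjusted p = 3.82e-05, edgeR) and in Crabp2 by 3.31 ± 0.51 (adjusted p = 0.000537, edgeR), the latter at 2.32 to 3.92 CPM against 0 to 0.430 CPM. They were lower in Stra6 (-4.99), Aldh1a1 (-4.82), Cyp26a1 (-3.79), Rdh10 (-1.26) and Aldh1a2 (-1.16). These 2 higher and 5 lower genes of 8 tested stand beside 42.6% higher and 37.5% lower of all genes (80.1% in all). Crabp2 passed the filter on low counts through the germ-like class only. The median log2 fold change of all genes was 0.12 in this comparison with the main scaling and 0.45 without it, and the direction of all 7 calls was the same in both. Without that scaling Cyp26b1 passed too, higher in germ-like cells by 0.76 (adjusted p = 0.0275, edgeR).

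The ALDH1A genes of germ-like cells were set against Sertoli-like RNA. Aldh1a2 in spermatocyte-like cells had a ratio of 17.6 UMIs to each Stra6 UMI, whereas in tubule Sertoli-like cells it was 1.47. Aldh1a1 in spermatocyte-like cells, at 78.3, 18.5, 66.4 and 16.7 CPM in library order, split by replicate number, with a ratio to Stra6 of 12.1 against 9.93 in tubule Sertoli-like cells. The 10 Sertoli markers split in the same way in spermatocyte-like cells, at 859, 152, 592 and 199 CPM, whereas Aldh1a2 did not. The part of Sertoli RNA in the Aldh1a1, Aldh1a2 and Stra6 levels of germ-like cells was not tested.

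Spermatogonia-like and spermatocyte-like cells differed in 5 of the 7 genes tested, 1 higher and 4 lower in spermatogonia, against 36.8% higher and 35.6% lower of all genes (72.4% in all). Crabp1 was higher in spermatogonia-like cells by 2.62 ± 0.10 on the log2 scale (6.16-fold, adjusted p = 2.44e-09, edgeR). Rdh10 was lower by -1.94 ± 0.16 (adjusted p = 4.59e-07, edgeR) and Aldh1a2 by -1.47 ± 0.10 (adjusted p = 1.58e-07, edgeR). Stra6 and Aldh1a1 were lower too, by -1.80 and -1.41. Stra6 was low in both, at 1.09 CPM on average in spermatogonia-like cells. In spermatocyte-like cells it stood at 7.36, 1.71, 4.81 and 0.967 CPM in library order. That level split by replicate number, as did Aldh1a1 and the Sertoli markers in spermatocyte-like cells. The part of Sertoli RNA in the Stra6 and Aldh1a1 calls was not tested. Of 23 other pathway genes, 7 were higher and 9 lower in spermatogonia-like cells. Stra8 was lower (-1.66), as was Gm4969 (-2.82), whereas the receptor genes Rxra (2.31), Rarg (1.01) and Rara (0.80) were higher.

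The 6 germ-like clusters, numbered apart from the Sertoli-like ones, showed the order in more detail, given here without a test. From the undifferentiated cluster 12 (Gfra1 and Zbtb16 high) through the differentiating clusters 8 and 4 to the spermatocyte-like clusters 6, 11 and 9, mean Crabp1 was 156, 605, 368, 115, 21.2 and 12.9 CPM. Crabp1 was thus highest in cluster 8. Mean Kit was 16.0, 151, 146, 102, 13.0 and 8.02 CPM in the same order, so it was high in clusters 8, 4 and 6. Cluster 6, though named spermatocyte-like, thus held more Kit than clusters 11 and 9. It also held 1200 of the 1415 Crabp1 UMIs of the spermatocyte-like class. Mean Aldh1a2 was 20.1, 23.9, 28.5, 61.9, 103 and 58.4 CPM in the same order. Rdh10 was 5.69, 5.82, 7.88, 33.7, 30.2 and 16.1 CPM. Stra8 had its highest mean in cluster 6, at 1117 CPM, where Rdh10 too had its highest mean. The Rdh10 libraries of clusters 6 and 11 overlapped, at 25.7 to 43.9 CPM and 26.2 to 34.9 CPM, and both controls were higher in cluster 11. Aldh1a2 in cluster 6, at 57.2 to 65.5 CPM, lay above every library of the spermatogonia-like clusters, at 14.1 to 33.2 CPM. Crabp1 in cluster 6 lay below each library's value in clusters 8 and 4.

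Rarb and Cyp26a1, the genes with receptor-type repeats in the promoters printed above, were both low in germ-like cells yet uneven among the clusters. In cluster 8 Rarb stood at 2.98 to 3.98 CPM over the 4 libraries, 33 of its 82 UMIs in all named cells, and every other germ-like cluster held 0.597 CPM or less in every library. Cyp26a1 in cluster 8 stood at 3.76, 5.97, 7.09 and 5.12 CPM, above the 0, 0.140, 0.217 and 0.296 CPM found in the libraries of cluster 4, though not above all libraries of clusters 11 and 12. Stra6, found with Cyp26a1 in Sertoli-like cells, averaged 0.919 CPM in cluster 8 and 7.11 CPM in cluster 11. In cluster 11 it stood at 17.8, 4.34, 5.36 and 0.989 CPM in library order, control 1 being high. The part of Sertoli RNA in the Cyp26a1 levels of the germ-like clusters was not tested. Cells above 4500 detected genes, left out here, were many among spermatogonia, and with them the mean Cyp26a1 was 10.1 CPM in undifferentiated and 6.06 CPM in differentiating spermatogonia-like cells, where it was 4.42 and 1.79 CPM without them. The mean Rarb in differentiating spermatogonia-like cells was 2.99 CPM with them and 1.21 CPM without them.

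**Figure D4:**
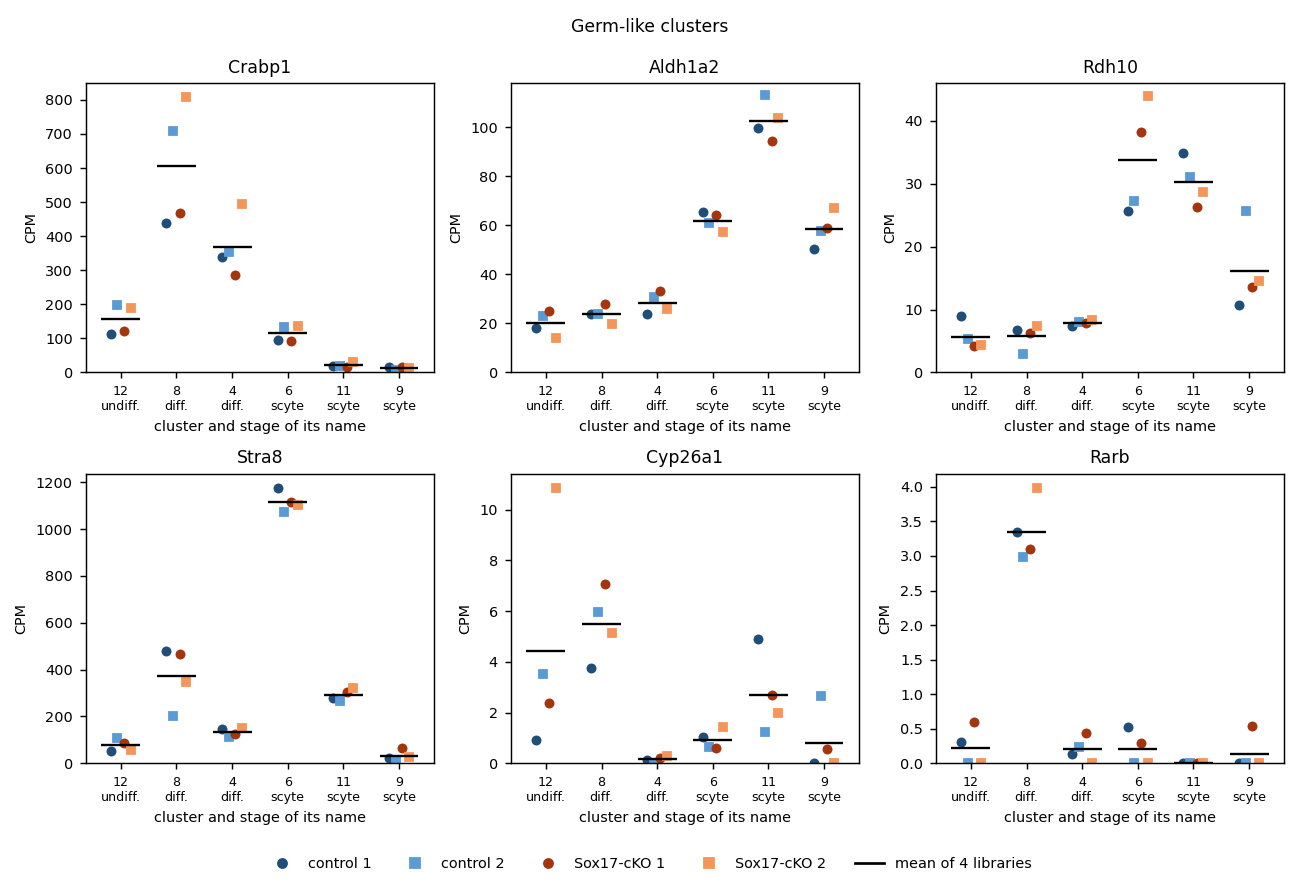
Level in CPM (linear axes from 0) of 6 genes in the germ-like clusters, ordered from undifferentiated spermatogonia-like to spermatocyte-like, with the 4 libraries as points and their mean as a bar. Crabp1 is highest in cluster 8 (437.7 to 808 CPM) and Aldh1a2 in cluster 11 (94.3 to 113 CPM), Stra8 is highest in cluster 6, and Rarb is above 1 CPM in cluster 8 only.

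Over all named classes Rarb had the fewest UMIs of the 9 genes, 82. Endothelial-like cells had the highest mean level, 7.80 CPM, but it rested on 3 UMIs in 72 cells. All other classes averaged 1.24 CPM or less. The other receptor genes were more widely expressed, with Rara at 89.7 CPM on average in tubule Sertoli-like, 41.2 CPM in RT-like and 13.9 CPM in spermatocyte-like cells. Rara was lower in RT-like (-1.40) and in SV Sertoli-like cells (-1.25) than in tubule Sertoli-like cells on the log2 scale, and Rarg was higher in RT-like cells (1.86).

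The genes whose levels over the 14 classes were most like those of each of the 9 were found among 13315 genes by Pearson's r of mean log2(CPM + 1), a description over classes of the same libraries. Cyp26b1 was most like Sct and Rbbp7 (r = 0.956 and 0.951), both highest in myoid-like cells. Crabp1 was most like Tuba3a and Cdkn2a (0.966 and 0.961), highest in differentiating spermatogonia-like cells. Stra6 was most like Aard and Acp7 (0.963 and 0.957), Aldh1a1 like Mmd2 and Rmdn2 (0.937 and 0.931), Rdh10 like Slc35d1 (0.869) and Cyp26a1 like Gm36028 and Rab3b (0.916 and 0.913). For Aldh1a2 the genes were Mrps17 and Ric3 (0.919 and 0.895), for Crabp2 Gm13830 and Plrg1 (0.884 and 0.881) and for Rarb Thsd7a and Sema3g (0.932 and 0.893), the last 2 highest in endothelial-like cells.

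Loss of Sox17 was compared in 5 classes, with 2 libraries against 2. After the filter on low counts, 2 of the 9 genes could be tested in RT-like, 4 in SV Sertoli-like, 7 in tubule Sertoli-like, 6 in myoid-like and 9 in germ-like cells. None of those tested passed the threshold in RT-like cells, where 0.133% of all 6787 genes did (0.0147% higher and 0.118% lower), 9 in number (392 at an unadjusted p under 0.05, and 20 by DESeq2). Both edgeR and DESeq2 called 0 genes at all in SV Sertoli-like, tubule Sertoli-like, myoid-like and germ-like cells, with 104, 99, 98 and 20 genes at an unadjusted p under 0.05 in edgeR (0% called). A design of this size passes a gene when the difference is large against the spread, as Sox17 itself did in RT-like cells (-3.14 ± 0.34, adjusted p = 0.0153, edgeR).

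The fold changes of the genes with at least 20 CPM in a class had wide errors. In RT-like cells Aldh1a1 differed by 0.20 ± 0.31 and Rdh10 by -0.18 ± 0.42 on the log2 scale. In SV Sertoli-like cells the values ran from -0.46 ± 0.44 for Stra6 to 0.14 ± 0.36 for Aldh1a2. In tubule Sertoli-like cells Aldh1a2 had the largest difference, -0.44 ± 0.29, with an unadjusted p of 0.155, which adjustment over all genes brought to 1.0 (edgeR). Its control libraries, at 75.4 and 101 CPM, lay above its Sox17-cKO libraries, at 71.7 and 70.3 CPM. In myoid-like cells Cyp26b1 differed by 0.02 ± 0.23, with control 1, control 2, Sox17-cKO 1 and Sox17-cKO 2 within 1357 to 1481 CPM. In germ-like cells Crabp1 differed by 0.15 ± 0.35, at 239.9 and 239 CPM in the controls and 188 and 353 CPM in the Sox17-cKO libraries. A p that misses the threshold does not show that the genotypes were alike.

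**Figure D5:**
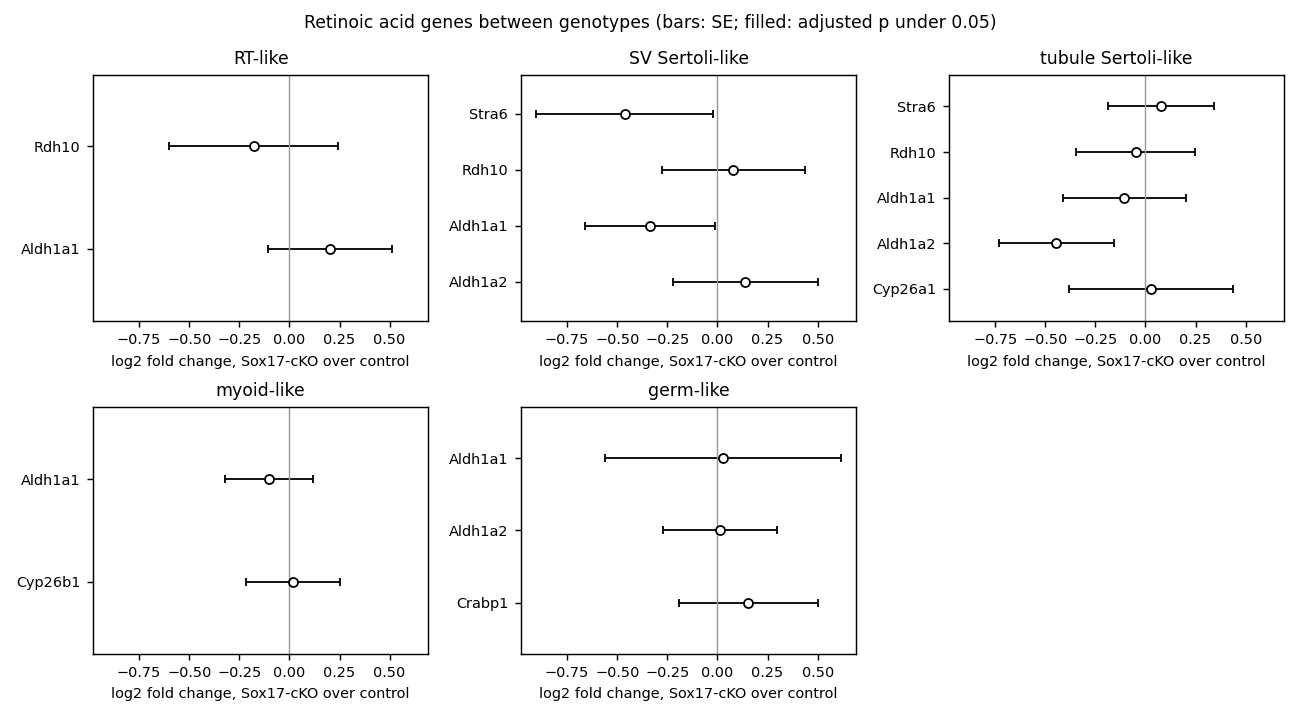
Log2 fold change of Sox17-cKO over control for the genes with at least 20 CPM in each of 5 cell classes, with bars of 1 SE. Every point is open, which marks an adjusted p of 0.05 or more, and the values lie between -0.46 (Stra6 in SV Sertoli-like cells) and 0.20 (Aldh1a1 in RT-like cells).

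The genotype differences were also compared between classes, as an interaction in edgeR with the library as a block, for RT-like, SV Sertoli-like and tubule Sertoli-like cells in pairs. No gene of the 9 passed in any pair, the largest value for genes with at least 20 CPM in both classes being 0.55 ± 0.32 for Aldh1a1 in RT-like minus SV Sertoli-like cells (adjusted p = 0.871, edgeR). Of the 48 other pathway genes, 14 could be tested between genotypes in RT-like, 12 in SV Sertoli-like, 27 in tubule Sertoli-like, 24 in myoid-like and 27 in germ-like cells. Among those tested, 0 were called in the fits within each class, which hold no term for the replicate number. Of all genes tested, 0.133% were called in RT-like cells and 0% in the other classes. In the interaction Dhrs4, which is among the 48 genes, passed in RT-like minus tubule Sertoli-like cells and is described below.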

How the data were processed

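Testes were dissociated and captured on the 10x Genomics Chromium platform, with 5000 cells targeted per library. The authors aligned the reads to the mouse genome (mm10, per the submitters' processing notes) and counted UMIs per gene and cell with Cell Ranger, version 6.0.2 for the libraries numbered 1 and 6.1.2 for those numbered 2 per the file headers, so version and replicate number cannot be told apart. The deposited files hold filtered matrices of raw UMI counts, not normalized.

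Cells with 1000 to 4500 detected genes were kept, as in the study. The study also required less than 1% mitochondrial UMIs, a rule that would have left 212 cells here and was therefore dropped. Doublets were kept, since Scrublet called 0 in 2 libraries, and removal of the highest scores was an alternative. Libraries were integrated and clustered with Seurat 5.3.0 (2000 variable genes without the 57 pathway genes, 20 components, resolution 0.4), and the SV class was taken from a resolution of 0.8 after the clusters were seen. UMI counts were summed per library and class and tested with edgeR 4.0.16 (R 4.3.3; TMM, filterByExpr, quasi-likelihood F test, library as a block between classes, adjusted p under 0.05). The rule for named genes took the 9 genes, every gene of the other pathway list that passed the threshold between classes, and for each of the 9 the 2 genes with the most similar levels over classes, and some of these genes are not reported here. Fold changes are given for called genes and for those with at least 20 CPM in a compared class, a limit chosen after the values were seen. The 9 genes and the lists were chosen with earlier results of these data known. The script was tested on simulated data. Shares of cells have 95% exact binomial intervals, which cover counting error only, as does the floor of 3 counts.

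Alternatives were DESeq2 1.42.0, no count filter, no library block, no integration, resolution 0.8, under 10% mitochondrial UMIs, doublet removal, cells over 4500 genes added, each library left out and the replicate number as a block. Library totals without TMM, thinning to 3000 UMIs and the interaction were added after the data were seen.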

Additional observations from a re-analysis of the deposited data

Results flagged for a closer look

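One result stood apart by a test of a difference between groups. Dhrs4, which encodes a short-chain dehydrogenase that acts on retinoids and is among the 48 other pathway genes, changed differently with genotype in RT-like and in tubule Sertoli-like cells. The genotype difference in RT-like minus that in tubule Sertoli-like cells was 1.45 ± 0.35 on the log2 scale (SE, adjusted p = 0.0116, edgeR over 12497 genes, of which 58 passed). In RT-like cells Dhrs4 stood at 71.9 and 98.7 CPM in the controls and at 157 and 179.7 CPM in the Sox17-cKO libraries. In tubule Sertoli-like cells it stood at 13.6 and 23.3 CPM in the controls and at 11.3 and 17.4 CPM in the Sox17-cKO libraries. The groups did not overlap in RT-like cells and overlapped in tubule Sertoli-like cells. Within each class the genotypes did not differ past the threshold, with 0.92 ± 0.31 in RT-like cells (adjusted p = 0.623, edgeR). None of the 9 genes met any of the criteria for a closer look.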

How the results depend on the processing

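Of the 22 log2 fold changes between classes that passed the threshold for the 9 genes, 21 kept their call and direction in every alternative that gave them a value, and the exception was Aldh1a1 in RT-like against SV Sertoli-like cells. Stra6 in spermatogonia-like against spermatocyte-like cells fell under the filter on low counts, and so was not tested, without the highest doublet scores, without integration, under 10% mitochondrial UMIs and without Sox17-cKO 1. Without the library block, 1693 genes passed between SV and tubule Sertoli-like cells (3038 with it) and 2414 between myoid-like and stroma-like cells (4665 with it). Of the 9 genes, 2 passed between SV and tubule Sertoli-like cells with no filter on low counts and 2 in cells under 10% mitochondrial UMIs, where 1 did otherwise, and 1 to 3 with a library left out, 3 being without control 2. Between myoid-like and stroma-like cells 4 passed with no filter, where 2 did otherwise. Library totals without TMM moved the median log2 fold change of all genes from -0.10 to 0.14 in RT-like against tubule Sertoli-like cells, where 3509 genes were then higher and 2371 lower (2859 and 3254 with TMM), and from 0.12 to 0.45 in germ-like against tubule Sertoli-like cells, where 6898 were higher and 4113 lower (5720 and 5029 with TMM).

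Counts of genes between genotypes moved most. In RT-like cells 9 passed, against 98 with no filter, 20 by DESeq2, 16 under 10% mitochondrial UMIs, 4 without the highest doublet scores, 4 without integration and 5 to 68 with a library left out (5 without control 1, 32 without control 2, 14 without Sox17-cKO 1 and 68 without Sox17-cKO 2). In the other classes, where 0 passed, no filter gave 3 in SV Sertoli-like, 2 in myoid-like and 3 in germ-like cells, and leaving out a library gave 0 to 8 in SV Sertoli-like (8 without control 2 or Sox17-cKO 1), 0 to 6 in tubule Sertoli-like (6 without Sox17-cKO 1), 1 to 16 in myoid-like (16 without control 1) and 1 to 3 in germ-like cells. None of the 9 genes was called in any of these, and the cause was not tested. With a library left out, the lone library of a group is assumed to vary like the others. Same-numbered libraries deviated together (correlations of 0.357 in RT-like, 0.392 in SV Sertoli-like, 0.497 in tubule Sertoli-like, 0.467 in myoid-like and 0.566 in germ-like cells), but with 2 pairs and no label this does not establish a pairing. The replicate number as a block gave 224 of 6787 genes in RT-like (111 higher and 113 lower), 41 of 12024 in tubule Sertoli-like and 15 of 11642 in myoid-like cells. None of the 9 genes was among them. In RT-like cells 4 of 14 tested pathway genes passed in edgeR with this block, 1 higher and 3 lower, where 0 did without it. Among them were Aldh1a3 (-1.25, adjusted p = 0.0132, edgeR), Rarres2 (-0.83, adjusted p = 0.0142) and Dhrs4 (0.92, adjusted p = 0.0345) in RT-like cells. Ces1d passed there with no filter (2.29, adjusted p = 0.0250) and without Sox17-cKO 2 (3.33, adjusted p = 0.0119, edgeR).

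Differences that did not pass changed sign as follows. Aldh1a1 in RT-like against tubule Sertoli-like cells was -0.022 without the highest doublet scores, -0.12 with no filter, -0.034 under 10% mitochondrial UMIs and -0.068 to 0.074 with a library left out. Crabp1 in the same comparison was -0.10 under 10% mitochondrial UMIs. Cyp26a1 in SV against tubule Sertoli-like cells was 0.15 without integration, 0.15 under 10% mitochondrial UMIs and -0.74 to 0.18 with a library left out. Between genotypes, Aldh1a1 in germ-like cells was -0.014 with the replicate block, Rdh10 in SV Sertoli-like cells -0.031 without integration, Cyp26a1 in tubule Sertoli-like cells -0.074 without integration, Aldh1a1 in tubule Sertoli-like cells 0.030 without TMM, and Rdh10 there 0.071 without TMM and 0.44 under 10% mitochondrial UMIs. With a library left out, genotype differences in germ-like cells ran from -0.998 to 0.89 for Aldh1a1, -0.25 to 0.33 for Aldh1a2 and -0.44 to 0.57 for Crabp1. In RT-like cells they ran from -0.0049 to 0.49 for Aldh1a1 and -0.43 to 0.20 for Rdh10, in SV Sertoli-like cells from -0.66 to 0.028 for Aldh1a1, -0.15 to 0.54 for Aldh1a2, -0.30 to 0.31 for Rdh10 and -1.004 to 0.19 for Stra6, and in tubule Sertoli-like cells from -0.29 to 0.13 for Aldh1a1, -0.47 to 0.78 for Cyp26a1, -0.38 to 0.21 for Rdh10 and -0.071 to 0.20 for Stra6.

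With the cells over 4500 detected genes added, 94 levels of the 9 genes moved by less than 1 SD over libraries and 32 by more. Stra6 rose from 11.95 to 18.4 CPM in RT-like and from 52.8 to 68.5 CPM in tubule Sertoli-like cells, Aldh1a2 in RT-like cells from 3.45 to 9.56 CPM (30.1 CPM in Sox17-cKO 1 and 2.94 CPM or less in the others), and Crabp1 in undifferentiated spermatogonia-like cells from 156 to 211 CPM. Depth limits the RT-like and SV Sertoli-like classes most, with 33 to 85 and 37 to 78 cells per library, where 7 and 7 of the 9 genes could be tested against the tubule class and 2 and 4 between genotypes.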

Other observations

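Other pathway genes that passed between classes (adjusted p under 0.05, edgeR) and are not described above included the following, with log2 fold changes. In RT-like against tubule Sertoli-like cells Aldh1a7 (1.11), Tgm2 (0.75), Rdh14 (0.56) and Nrip1 (0.39) were higher and Rarres1 (-4.79), Rxrb (-0.77) and Adh5 (-0.67) lower. Ces1d, a retinyl ester hydrolase, was higher too, at 15.1, 6.92, 103 and 18.1 CPM in library order in RT-like cells, with 1 UMI in all tubule Sertoli-like cells, and Sox17-cKO 1 was its high library. Adh4 was lower, with 0 UMIs in RT-like cells and 6.99 to 10.8 CPM in tubule Sertoli-like cells. In RT-like against SV Sertoli-like cells Aldh1a3 (4.38), Dhrs4 (2.44), Rarres2 (2.13) and Aldh1a7 (2.05) were higher and Fabp5 (-2.37) and Tgm2 (-1.63) lower. In SV against tubule Sertoli-like cells Tgm2 (2.65) and Nrip1 (0.42) were higher and Rec8 (-1.40), Rarres1 (-1.17), Fabp5 (-0.71) and Adh5 (-0.67) lower. Aldh1a7 is a close relative of Aldh1a1, and the effect of reads shared between their transcripts on either count was not tested.

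In myoid-like against stroma-like cells Tgm2 (1.10), Rdh13 (0.49), Fabp5 (0.42) and Adh5 (0.36) were higher. Aldh1a3 (-2.19), Dhrs3, a retinal reductase (-1.56), Rarg (-1.03), Rarres2 (-0.59) and Rxrb (-0.34) were lower. In germ-like against tubule Sertoli-like cells 9 of 27 were higher and 17 lower, beside 42.6% higher and 37.5% lower of all genes. The higher ones were Gm4969 (3.97), Rbp4 (3.88), Stra8 (3.78), Rarg (3.004), Rdh12 (2.40), Dgat1 (1.56), Rxra (1.31), Lipe (1.16) and Rdh11 (0.63). Among the lower ones were Rarres1 (-5.09), Aldh1a7 (-4.76), Adh4 (-4.70), Fabp5 (-4.03), Tgm2 (-3.60), Nrip1 (-2.89), Dhrs3 (-2.66), Rara (-2.42), Aldh1a3 (-2.06), Adh5 (-1.55), Dhrs4 (-1.48), Rdh13 (-1.25), Rarres2 (-1.23), Rec8 (-0.75), Rxrb (-0.56) and Rdh14 (-0.56). In spermatogonia-like against spermatocyte-like cells Rdh13 (1.78), Dhrs3 (0.98), Adh5 (0.67) and Nrip1 (0.64) were higher and Rdh14 (-1.60), Rarres1 (-1.59), Dgat1 (-1.40), Rdh11 (-1.33), Lipe (-1.11), Tgm2 (-0.99) and Rec8 (-0.84) lower. Cyp26c1, the remaining CYP26 gene, had 0 UMIs in every class.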
